A study of Mus musculus with 12 samples.

Results

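The interferon-stimulated genes examined here were 34 named genes (Ifit1, Ifit2, Ifit3, Isg15, Usp18, Herc6, Irf1, Irf7, Irf9, Stat2, Sp100, Oas1a, Oasl2, Ifih1, Ddx58, Dhx58, Zbp1, Mx1, Rsad2, Cmpk2, Bst2, Xaf1, Ifi44, Ifi35, Parp14, Trim30a, Gbp2, Gbp3, Gbp7, Igtp, Irgm1, Iigp1, Cxcl9 and Cxcl10). They were chosen by symbol, and all 34 were found among the 23474 genes of the expression table. Their levels were followed in 12 RNA-seq libraries of mouse epididymal white adipose tissue (eWAT), 3 libraries in each of 4 groups and 1 mouse in each library. All mice were male C57BL/6J, began their diets at 5 weeks of age, ate them for 12 weeks and were 17 weeks old at the end. The ND group ate a normal diet and the HFD group a high-fat diet. The GT group ate the high-fat diet with 0.25% (w/w) of an ethanol extract of green tea, and the TJ group ate it with 3% (w/w) of Taeeumjowitang (TJ), an herbal medicine. Each group had 10 mice, of which 3 were sequenced, and the GT and TJ comparisons share their HFD libraries.

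Interferons are secreted proteins that bind receptors at the cell surface and act through Janus kinases and STAT transcription factors. Type I interferons act with STAT2 and IRF9 at the interferon-stimulated response element (ISRE) of target promoters, and interferon gamma acts at the gamma-activated site (GAS) and raises IRF1. The products block viral replication, sense foreign nucleic acid, attack vacuoles of intracellular pathogens, present antigen and attract T cells. In obese adipose tissue, adipocytes, macrophages, endothelial cells and lymphocytes can all express such genes.

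The promoters of these genes were searched for the core of the ISRE, GAAANNGAAA (TTTCNNTTTC on the other strand), and for the GAS, TTCNNNGAA, which reads the same on both strands. RefSeq windows on GRCm38.p6 reached from 250 bases before to 50 bases after each annotated start. They were matched for 28 of the 34 genes, which gave 34 windows. Dhx58, Iigp1, Mx1, Parp14, Usp18 and Zbp1 had no entry. The ISRE core was found in 17 of the 34 windows of these genes, against 3.44% of all 32851 windows of this length. The GAS was found in 7 of them (20.6%), against 8.30% of all windows. A match is only a match of letters, and it does not show that a factor bound there.

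The stretches printed here, each read 5′ to 3′ on the strand of the gene, come from the members with higher RNA in TJ than in HFD (described further on) that hold a match before their start. The capitals mark the ISRE core or GAS letters.
Igtp, chr11:58199497-58199556 (+): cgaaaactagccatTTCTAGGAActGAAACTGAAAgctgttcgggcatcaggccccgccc
Bst2, chr8:71537562-71537621 (-): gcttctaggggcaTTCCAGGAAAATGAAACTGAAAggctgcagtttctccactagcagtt
Isg15, chr4:156200850-156200909 (-): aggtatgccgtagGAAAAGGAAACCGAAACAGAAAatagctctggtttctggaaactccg
Gbp3, chr3:142559980-142560039 (+): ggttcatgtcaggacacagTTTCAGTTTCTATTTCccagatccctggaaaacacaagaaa
Gbp2, chr3:142620579-142620638 (+): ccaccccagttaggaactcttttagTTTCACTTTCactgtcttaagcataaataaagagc
Ifit3, chr19:34583382-34583441 (+): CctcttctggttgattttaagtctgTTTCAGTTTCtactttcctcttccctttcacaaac
Irf1, chr11:53769899-53769958 (+): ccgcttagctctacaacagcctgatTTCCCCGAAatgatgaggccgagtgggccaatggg
In Igtp the GAS match lies just before the ISRE core, in Bst2 the GAS overlaps the first of 2 ISRE cores, and in Irf1 only the GAS is present. The single capital that opens the Ifit3 stretch ends a further ISRE match. Isg15 holds 3 overlapping ISRE cores and Gbp3 holds 2.

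Of 25 ISRE matches in these windows, 19 began within 150 bases before the start, as the plot of match positions shows. Among the members called higher in TJ than in HFD, 6 of 13 windows held the ISRE core (46.2%) and 4 held the GAS (30.8%). Among the other members, 11 of 21 windows held the ISRE core (52.4%) and 3 held the GAS (14.3%). Neither motif was found in these letters in the windows of Cxcl9, Xaf1 and Irf7, 3 members that were also higher in TJ.

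**Figure D1:**
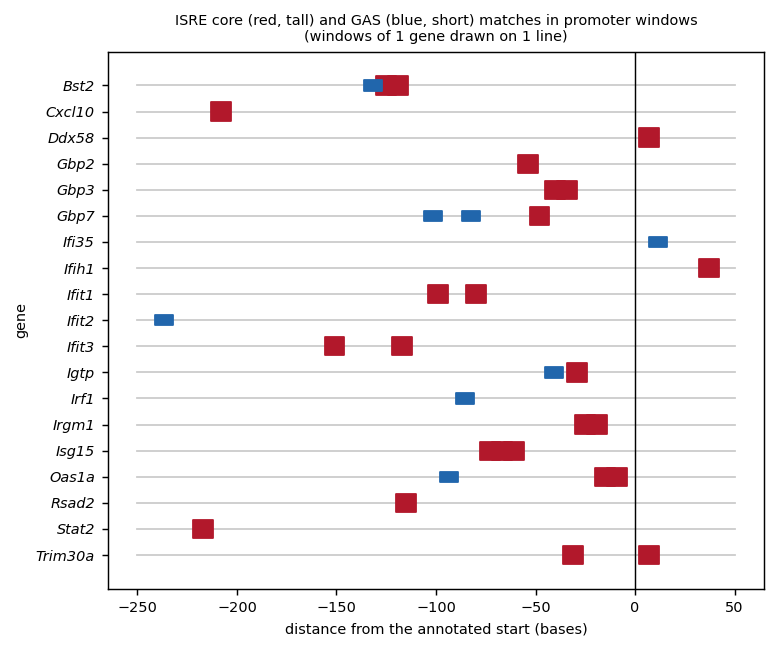
Positions of ISRE core matches (red, tall) and GAS matches (blue, short) along the promoter windows of the 19 members with at least 1 match. The x axis gives the distance in bases from the annotated start and each grey line is a gene. Oas1a and Gbp7 hold both motifs, as do Igtp and Bst2.

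The files gave FPKM, fragments scaled to transcript length and library depth, so levels of different genes can be set side by side per length. The depth was estimated from the smallest steps between values at 10.2M to 19.5M fragments per library. It is approximate, and only the spread between mice gives the error of a value. ND replicate 1 stood apart: its FPKM values summed to 1002765, against 527904 to 725245 in the other libraries, and 5 genes of testis germ cells (Prm1, Prm2, Tnp1, Tnp2 and Odf1) made up 9.32% of that sum. The same 5 genes summed to 2402 FPKM in ND replicate 3, 1783 in HFD replicate 1 and 0.602 to 134 in the other 9 libraries. Another 5 genes, of the epididymis (Adam7, Lcn5, Lcn9, Crisp1 and Defb42), summed to 4736 FPKM in ND replicate 1 and 1287 in HFD replicate 2. Adipocyte markers (Adipoq, Plin1, Lep, Fabp4, Cidec and Lipe) summed to 3820 FPKM in ND replicate 1 and to 16536 to 57572 in the others, so the labelled tissue was present in all libraries and least in that one. ND replicate 1 was the lowest of the 12 libraries for 31 of the 34 interferon-stimulated genes. Every comparison with ND is therefore given with and without it.

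**Figure D2:**
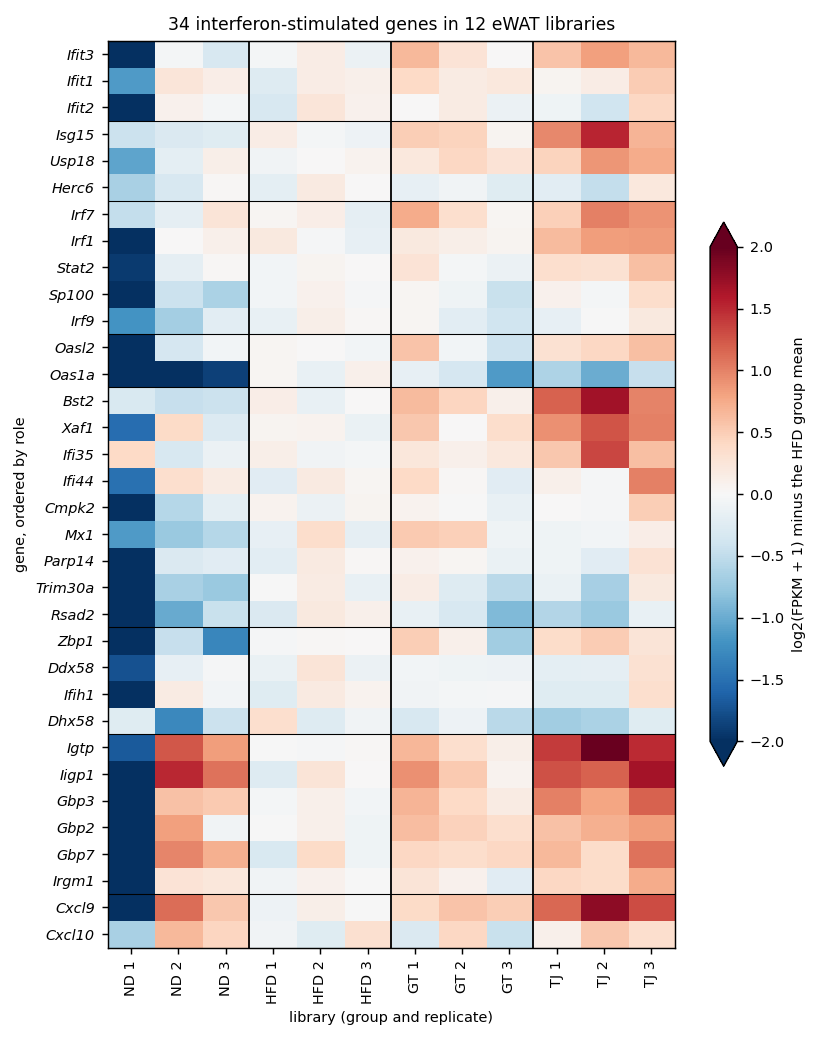
Heat map of the 34 genes (rows, ordered by role) in the 12 libraries (columns). Colour gives log2(FPKM + 1) minus the mean of the HFD libraries, from −2 (blue) to 2 (red). ND replicate 1 is blue for most genes, and the GTPases Igtp, Iigp1 and Gbp3 and the chemokine Cxcl9 are red in all 3 TJ libraries and in ND replicates 2 and 3.

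Groups were compared with limma on log2(FPKM + 1). A gene was called when its Benjamini-Hochberg adjusted p-value over all tested genes was under 0.05 and its fold change was at least 1.5. All 34 genes passed the filter of a mean of 1 FPKM in each comparison of 3 against 3 libraries. Fold changes on this scale understate changes of low genes.

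The clearest difference was between TJ and HFD. Of the 34 genes, 13 were called higher in TJ (Igtp, Cxcl9, Iigp1, Bst2, Xaf1, Isg15, Gbp3, Ifi35, Irf7, Irf1, Gbp2, Usp18 and Ifit3), 1 was called lower (Oas1a) and 20 were not called. Among all 12807 genes tested, 7.41% were called higher and 11.1% lower. Over the 34 genes the median log2 fold change was 0.39, and over all tested genes it was −0.14. In 17 of the 34 genes every TJ library was above every HFD library, which held for 20.1% of all tested genes. In 1 gene, Oas1a, every TJ library was below every HFD library, which held for 31.4% of all tested genes.

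The interferon-inducible GTPases, which coat and disrupt vacuoles of intracellular pathogens, had 4 of 6 members called higher in TJ. All 6 had a positive log2 fold change, with a median of 0.85. Igtp (chr11:58199556-58207591, + strand), an immunity-related GTPase also known as Irgm3, had the largest difference of the 34 genes. It measured 1.73, 19.6 and 14.6 FPKM in the ND libraries, 7.71, 7.55 and 7.88 in HFD, 12.8, 10.01 and 8.46 in GT and 22.1, 33.2 and 23.5 in TJ. The lowest TJ value was above every other library, and the HFD values were nearly alike. The mean was 26.2 ± 6.07 FPKM in TJ and 7.71 ± 0.165 FPKM in HFD (SD, n = 3), a ratio of 3.40-fold (limma, log2 fold change 1.62, SE 0.17, adjusted p = 0.0196). Iigp1, a GTPase of the same family, measured 0.110, 29.8 and 21.9 FPKM in the ND libraries, 8.04, 11.96 and 9.86 in HFD, 19.5, 14.6 and 10.4 in GT and 25.1, 23.5 and 33.3 in TJ. The TJ and HFD libraries did not overlap, and ND replicate 2 lay within the TJ range (TJ against HFD, limma, log2 fold change 1.37, SE 0.19, adjusted p = 0.0196).

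Guanylate-binding proteins, the other GTPase family, make up 3 of the 6. Gbp3 measured 0.745, 15.9 and 15.1 FPKM in the ND libraries, 9.83, 10.95 and 9.80 in HFD, 16.9, 13.8 and 11.6 in GT and 21.5, 18.3 and 24.2 in TJ. Each TJ library was above all HFD and GT libraries (TJ against HFD, limma, log2 fold change 0.99, SE 0.14, adjusted p = 0.0196). Gbp2 measured 1.29, 43.9 and 23.3 FPKM in the ND libraries, 24.2, 26.3 and 22.9 in HFD, 38.1, 33.9 and 31.2 in GT and 37.2, 40.7 and 44.3 in TJ. Its GT and TJ libraries were both above HFD and their ranges overlapped (TJ against HFD, limma, log2 fold change 0.71, SE 0.13, adjusted p = 0.0248). Gbp7 had a mean of 12.3 ± 3.35 FPKM in TJ and 7.15 ± 2.03 FPKM in HFD and was not called (limma, log2 fold change 0.70, SE 0.24, adjusted p = 0.0763), and 1 TJ library lay below the highest HFD library. Irgm1, a regulator of the other GTPases, passed the p-value threshold but not the 1.5-fold threshold (limma, log2 fold change 0.51, SE 0.14, adjusted p = 0.0473). Gbp genes are a family of close copies, and exons of Igtp overlap those of Irgm2 on the same strand, so shared reads leave some uncertainty in how much belongs to each.

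The chemokines Cxcl9 and Cxcl10 attract activated T cells and NK cells through CXCR3, and only Cxcl9 was called. Cxcl9 (chr5:92321347-92328079, − strand) measured 0.973, 23.5 and 15.4 FPKM in the ND libraries, 9.48, 11.2 and 10.2 in HFD, 13.7, 15.8 and 14.9 in GT and 23.9, 38.001 and 26.97 in TJ. The groups TJ, GT and HFD did not overlap and lay in that order, with TJ 2.88-fold of HFD by means (limma, log2 fold change 1.42, SE 0.19, adjusted p = 0.0196). Cxcl10 measured 1.17, 4.33 and 3.57 FPKM in the ND libraries, 2.23, 1.86 and 3.27 in HFD, 1.79, 3.54 and 1.504 in GT and 2.66, 3.96 and 3.30 in TJ. Its TJ and HFD ranges overlapped and the 95% interval of the log2 fold change was −0.19 to 0.84 (limma, adjusted p = 0.28). The difference between the fold changes of Cxcl9 and Cxcl10 was not tested.

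Among other antiviral effectors, 3 of 9 were called higher. Bst2 encodes tetherin, which holds budding virus at the cell membrane, and it was the most abundant of the 34 genes in 11 of the 12 libraries. It measured 38.002, 33.7 and 34.6 FPKM in the ND libraries, 51.8, 42.4 and 47.3 in HFD, 73.6, 63.9 and 50.6 in GT and 108, 152 and 94.4 in TJ. All TJ libraries were above all others, by 2.51-fold over HFD by means (limma, log2 fold change 1.28, SE 0.20, adjusted p = 0.0223). Xaf1, a pro-apoptotic partner of XIAP, measured 3.29, 15.04 and 9.14 FPKM in the ND libraries, 11.8, 11.9 and 10.3 in HFD, 16.8, 11.4 and 14.7 in GT and 22.2, 28.4 and 23.7 in TJ. The TJ values were again above every other library (TJ against HFD, limma, log2 fold change 1.06, SE 0.14, adjusted p = 0.0196). Ifi35 measured 17.2, 10.1 and 11.7 FPKM in the ND libraries, 14.02, 12.2 and 12.4 in HFD, 15.3, 13.8 and 15.1 in GT and 19.2, 34.1 and 20.1 in TJ. TJ replicate 2 was well above the other TJ libraries in this gene (TJ against HFD, limma, log2 fold change 0.83, SE 0.23, adjusted p = 0.0442), and without it the log2 fold change was 0.57 and no longer called.

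The other 6 effectors were not called. Rsad2, which encodes viperin, measured 0.226, 3.85 and 6.16 FPKM in the ND libraries, 6.90, 10.1 and 9.41 in HFD, 7.77, 6.80 and 4.24 in GT and 5.48, 4.805 and 7.80 in TJ, and TJ replicate 3 lay above the lowest HFD library (limma, log2 fold change −0.49, SE 0.21, adjusted p = 0.124). Mx1, a dynamin-like GTPase whose C57BL/6J allele is known to be nonfunctional, measured 0.201, 0.577 and 0.769 FPKM in the ND libraries, 1.34, 2.35 and 1.32 in HFD, 2.79, 2.64 and 1.47 in GT and 1.49, 1.54 and 1.89 in TJ. TJ lay within the range of HFD (limma, log2 fold change 0.00, SE 0.23, adjusted p = 0.995). Trim30a measured 0.369, 8.84 and 8.22 FPKM in the ND libraries, 14.4, 16.3 and 13.01 in HFD, 16.1, 11.99 and 9.62 in GT and 13.2, 8.76 and 16.8 in TJ, again with overlapping groups (TJ against HFD, limma, log2 fold change −0.20, SE 0.23, adjusted p = 0.517). Cmpk2, Parp14 and Ifi44 had log2 fold changes of 0.16, −0.01 and 0.36.

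In the ISG15 conjugation group, 2 of 3 were called higher. Isg15, a ubiquitin-like protein that is attached to other proteins, measured 4.99, 5.60 and 5.76 FPKM in the ND libraries, 7.92, 6.80 and 6.45 in HFD, 10.3, 9.91 and 7.38 in GT and 14.6, 22.1 and 11.9 in TJ. The TJ libraries were the 3 highest of the 12, and TJ replicate 2 was the highest of them (TJ against HFD, limma, log2 fold change 1.05, SE 0.22, adjusted p = 0.0291). Usp18, the protease that removes ISG15 and dampens signalling at the type I interferon receptor, measured 0.628, 1.96 and 2.65 FPKM in the ND libraries, 2.21, 2.396 and 2.55 in HFD, 2.92, 3.50 and 3.08 in GT and 3.62, 5.23 and 4.67 in TJ. All TJ values were above those of the other groups (TJ against HFD, limma, log2 fold change 0.69, SE 0.17, adjusted p = 0.0382). Herc6, the ligase that attaches ISG15 in mice, had means of 3.60 ± 1.14 FPKM in TJ and 4.07 ± 0.650 FPKM in HFD and was not called (limma, log2 fold change −0.16, SE 0.22, adjusted p = 0.579).

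Of the transcription factors and the nuclear body protein Sp100, 2 of 5 were called higher. Irf1, the factor that interferon gamma induces, measured 3.83, 26.3 and 27.9 FPKM in the ND libraries, 29.9, 25.6 and 23.1 in HFD, 29.9, 28.4 and 27.1 in GT and 40.95, 47.1 and 47.7 in TJ. The TJ libraries were above all others, and ND replicates 2 and 3, HFD and GT overlapped (TJ against HFD, limma, log2 fold change 0.77, SE 0.14, adjusted p = 0.0253). Irf7, which drives type I interferon genes, measured 7.49, 9.48 and 13.1 FPKM in the ND libraries, 11.2, 12.005 and 9.45 in HFD, 18.9, 13.9 and 11.2 in GT and 15.4, 22.8 and 21.05 in TJ. TJ was above HFD in every library and overlapped GT (TJ against HFD, limma, log2 fold change 0.79, SE 0.18, adjusted p = 0.0317). Stat2 and Irf9, which act at the ISRE, had log2 fold changes of 0.41 (limma, adjusted p = 0.0623) and 0.01 (adjusted p = 0.969). Sp100 measured 1.56, 26.1 and 22.6 FPKM in the ND libraries, 33.9, 37.4 and 34.9 in HFD, 36.3, 33.3 and 25.7 in GT and 37.4, 34.3 and 45.7 in TJ, and its TJ and HFD values overlapped (limma, log2 fold change 0.13, SE 0.14, adjusted p = 0.499). Exons of Irf7 overlap Phrf1 on the opposite strand, and those of Irf1 overlap Gm17334. The library kit does not mark strand, so reads from the overlaps cannot be told apart.

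Ifit3 was the 1 called gene of the 3 IFIT proteins, which bind foreign RNA. It measured 1.81, 12.5 and 10.2 FPKM in the ND libraries, 12.6, 14.4 and 11.9 in HFD, 20.9, 15.8 and 12.99 in GT and 19.8, 23.6 and 20.8 in TJ. The TJ and HFD libraries did not overlap (limma, log2 fold change 0.68, SE 0.13, adjusted p = 0.027). Ifit1 and Ifit2 had log2 fold changes of 0.24 and −0.03, with 95% intervals of −0.23 to 0.71 and −0.61 to 0.56.

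The oligoadenylate synthetase Oas1a, which activates RNase L on double-stranded RNA, went the other way. It measured 1.25, 2.09 and 2.37 FPKM in the ND libraries, 11.7, 10.1 and 12.3 in HFD, 9.99, 8.75 and 4.65 in GT and 7.002, 5.17 and 7.91 in TJ. All HFD values were above all TJ and GT values, and every ND value was below all of these (TJ against HFD, limma, log2 fold change −0.70, SE 0.17, adjusted p = 0.0379). It was not called after median-of-ratios scaling (log2 fold change −0.58) or quantile normalization (−0.47). Its relative Oasl2 had a log2 fold change of 0.44 and passed the p-value threshold alone (limma, adjusted p = 0.0493).

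None of the 4 nucleic acid sensors was called, and their median log2 fold change was −0.04. Dhx58, which encodes LGP2, measured 5.07, 1.94 and 4.30 FPKM in the ND libraries, 8.004, 4.997 and 5.81 in HFD, 4.76, 5.69 and 3.92 in GT and 3.43, 3.60 and 5.05 in TJ. TJ replicate 3 lay above the lowest HFD library (TJ against HFD, limma, log2 fold change −0.53, SE 0.21, adjusted p = 0.104). Ddx58, encoding RIG-I, and Ifih1, encoding MDA5, had means of 11.1 ± 2.56 FPKM and 6.49 ± 1.82 FPKM in TJ and 11.3 ± 1.94 FPKM and 6.68 ± 1.15 FPKM in HFD. Zbp1, the sensor of Z-form nucleic acid, was higher in every TJ library than in every HFD library but was not called (limma, log2 fold change 0.38, SE 0.13, adjusted p = 0.0761).

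**Figure D3:**
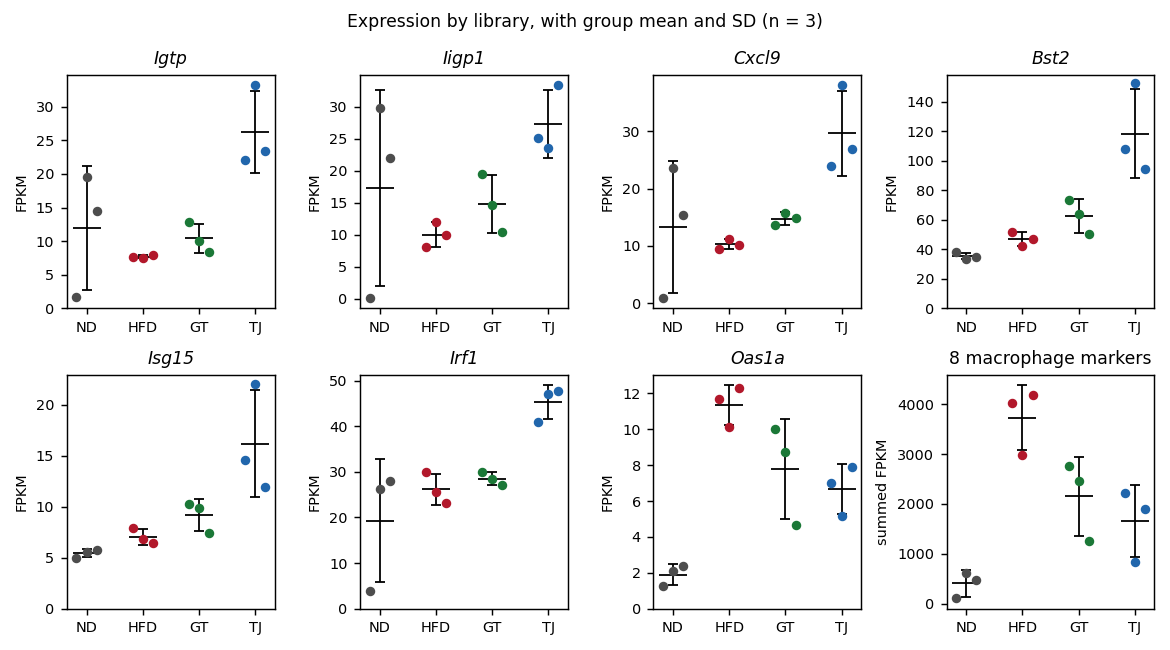
FPKM of 7 genes in each library, and the summed FPKM of 8 macrophage markers, by group (points: libraries; bars: mean and SD, n = 3). Igtp, Iigp1, Cxcl9, Bst2, Isg15 and Irf1 are highest in TJ by mean, while Oas1a and the macrophage markers are highest in HFD.

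The calls in TJ against HFD depended on single libraries: without HFD replicate 1, 2 or 3 or TJ replicate 1, no gene of the whole table was called by limma, and the smallest adjusted p of the 34 genes was 0.0512 to 0.110. At an unadjusted p under 0.05, 15 to 17 of the 34 were then higher and 1 or 2 lower, against 10.8% to 16.3% and 17.9% to 21.8% of all tested genes. Over the 6 libraries left out in turn, the log2 fold change ran from 1.45 to 1.73 for Igtp, from 0.65 to 0.77 for Gbp2, from 0.82 to 1.24 for Isg15 and, the widest of the 34, from 0.04 to 0.56 for Ifi44. HFD replicate 1 held testis transcripts and HFD replicate 2 epididymis transcripts, and without them the median log2 fold change of the 34 genes was 0.37 and 0.44. With all 12 libraries in the fit, which then includes ND replicate 1, limma called none of the 34. Of all 12807 tested genes that fit called 1 higher and 0 lower. With 11 libraries, without ND replicate 1, limma called 14 of the 34 higher and none lower, against 9.49% and 14.0% of all tested genes.

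The median over all tested genes went from −0.14 to −0.03 on the log2 scale with median-of-ratios scaling and to 0.03 with quantile normalization. All-gene calls went from 949 higher and 1417 lower to 1229 and 1177, and to 1543 and 1151. The 13 genes called higher were called under both, with 15 and 18 of the 34 called higher in all. Bst2, Isg15 and Ifi35 have transcripts of 792, 756 and 1362 nt at most. With the trend of fold change on transcript length removed, Bst2 stayed called (log2 fold change 0.92), while Isg15 (0.69), Ifi35 (0.57), Ifit3 (0.50) and Usp18 (0.51) did not, and Gbp7 and Irgm1 were called in addition.

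Cell type markers moved with this comparison. In bulk tissue, fewer cells of a type and less RNA per cell cannot be told apart. Macrophage markers went opposite to most of the 34 genes: 7 of 8 (Adgre1, Itgam, Cd68, Csf1r, Mrc1, Cd14 and C1qa, not Lyz2) were called lower in TJ, with a median log2 fold change of −1.45. Their summed level was 2981 to 4183 FPKM in HFD and 844 to 2222 in TJ, with none at 0 in any library. The TJ library with the lowest macrophage sum, replicate 2, was the highest TJ library for 11 of the 34 genes and the lowest for 15. T cell markers summed to 2.84 to 3.63 FPKM in HFD and 6.41 to 8.87 in TJ. Only 2 of the 6, Cd2 and Cd3g, passed the filter. Cd2 was not called by limma and was called higher with median-of-ratios scaling. Cd3g averaged under 1 FPKM in HFD and passed the filter through TJ, so no test of it is given. The defining markers Cd3e, Cd3d and Cd3g were above 0 in every library. Of 6 adipocyte markers 5 were called higher in TJ, with sums of 16536 to 18874 FPKM in HFD and 28329.5 to 57572 in TJ. Of 4 endothelial markers 1 (Vwf) was called higher, and of 4 stromal markers 2 (Col1a1 and Pdgfra) were called lower. B cell markers summed to 2.69 to 3.40 FPKM in HFD and 3.92 to 9.11 in TJ. Markers of conventional dendritic cells summed to 88.01 to 136 FPKM in HFD and 15.9 to 48.02 in TJ. The part of these markers in the differences of the interferon-stimulated genes was not tested.

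GT against HFD asks the same question of green tea extract. Limma called none of the 34 genes in GT against HFD, where 1.83% of all 12766 tested genes were called higher and 1.81% lower. At an unadjusted p under 0.05, 5 of the 34 were higher in GT and 0 lower, against 9.98% and 19.3% of all tested genes. The median log2 fold change of the 34 was 0.05, and that of all tested genes was −0.12. With median-of-ratios scaling and with quantile normalization, 13 were higher at that unadjusted p and 0 lower. Of all tested genes 15.3% and 16.5% were then higher and 12.8% and 10.7% lower. The median of the 34 was 0.14 and 0.22, against −0.02 and 0.03 for all tested genes. In 6 genes (Ifit1, Usp18, Gbp2, Gbp3, Igtp and Cxcl9) every GT library was above every HFD library, which held for 12.3% of all tested genes. In 1 gene, Oas1a, every GT library was below every HFD library, which held for 24.4%.

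The 4 highest log2 fold changes in GT were those of Iigp1, Cxcl9, Gbp2 and Gbp3. Cxcl9 passed the p-value threshold but not the 1.5-fold threshold (limma, log2 fold change 0.48, SE 0.10, adjusted p = 0.0489). It was called after median-of-ratios or quantile rescaling. Iigp1 overlapped HFD in GT replicate 3 (limma, log2 fold change 0.50, SE 0.23, adjusted p = 0.201), and Gbp2 did not overlap (limma, log2 fold change 0.47, SE 0.11, adjusted p = 0.0558). The largest difference in size was that of Oas1a, which was lower in GT (limma, log2 fold change −0.54, SE 0.25, adjusted p = 0.194), and Rsad2 (log2 fold change −0.45) and Dhx58 (−0.32) followed it at that end. GT replicate 3 was the lowest GT library for 27 of the 34 genes and GT replicate 1 the highest for 27. Macrophage marker sums were 1260.3 to 2759 FPKM in GT, lowest in replicate 3, and limma called 0 of 8 macrophage markers, all 8 of which had a negative log2 fold change in GT. All 6 adipocyte markers had a positive one, with Plin1 and Lipe called higher, and the stromal marker Pdgfra was called lower. The part of these markers in the values was not tested.

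**Figure D4:**
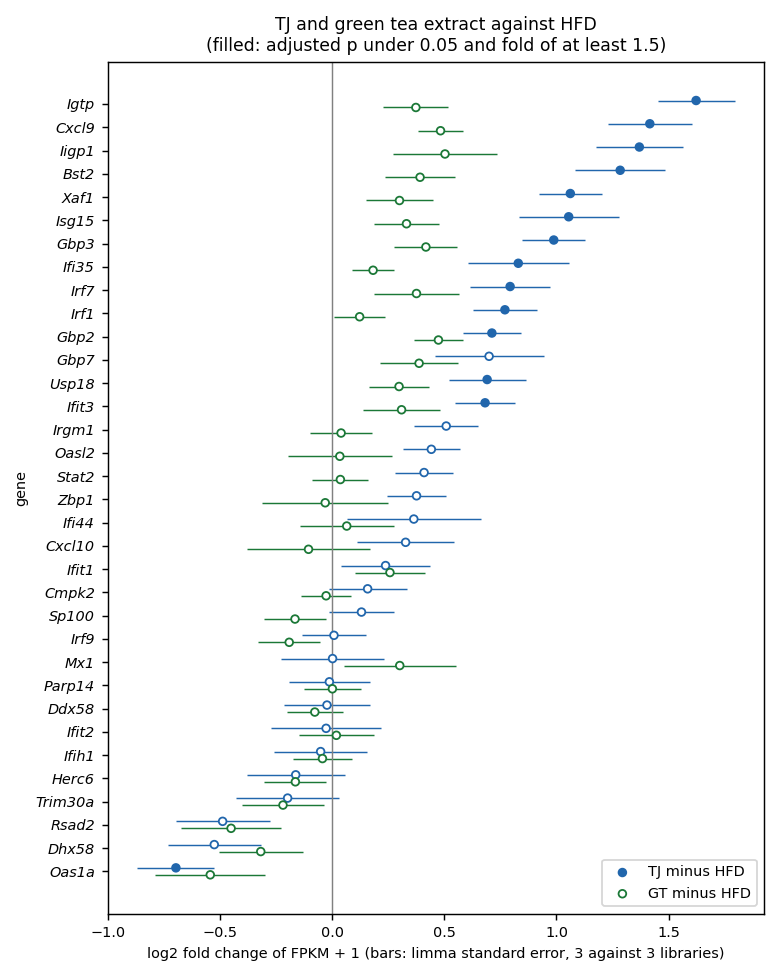
Log2 fold change of FPKM + 1 against HFD for TJ (blue) and GT (green), with limma standard errors (3 against 3 libraries). Filled points pass the adjusted p-value and fold thresholds. The same HFD libraries enter both, 14 TJ points and no GT point are filled, and Igtp is farthest right for TJ.

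TJ against GT compares both supplements without the shared HFD libraries. Limma called none of the 34 genes. Of all 12187 genes tested, 0.139% were called higher and 0.00821% lower in TJ. At an unadjusted p under 0.05, 11 of the 34 were higher in TJ and 0 lower, against 14.9% and 9.66% of all tested genes. The median log2 fold change was 0.34 for the 34 genes and −0.03 for all genes. In 12 of them (Isg15, Irf1, Stat2, Usp18, Xaf1, Bst2, Ifi35, Gbp3, Igtp, Irgm1, Iigp1 and Cxcl9) every TJ library was above every GT library, which held for 19.5% of all tested genes.

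Igtp had the largest difference between the supplements, 2.52-fold by means, with the smallest adjusted p of the 34 (limma, log2 fold change 1.25, SE 0.21, adjusted p = 0.0734, 95% interval of the log2 fold change 0.76 to 1.73). Cxcl9 (0.93), Bst2 (0.89) and Iigp1 (0.87) followed. The lowest log2 fold changes were those of Mx1 (−0.30), Dhx58 (−0.21) and Oas1a (−0.15, 95% interval −0.78 to 0.48). With 11 libraries in the fit, without ND replicate 1, limma called 4 of the 34 higher in TJ (Bst2, Cxcl9, Igtp and Irf1) and none lower, and 1.68% of all tested genes were called higher and 0.345% lower.

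HFD against ND asks what the high-fat diet itself did. With all ND libraries, 1 of the 34 genes (Oas1a) was called higher in HFD and none lower. Of all 14430 genes tested 1.73% were called higher and 0.0416% lower. At an unadjusted p under 0.05, 2 of the 34 were higher and 0 lower by limma, against 9.84% and 1.75% of all tested genes. The median log2 fold change of the 34 genes was 0.67, against 0.07 for all genes. Mx1 averaged under 1 FPKM in ND and passed the filter through HFD. Deviations from the group means correlated at 0.547, 0.342 and 0.122 for same-numbered HFD and ND libraries. HFD replicate 3 and ND replicate 2, of unlike number, reached 0.626. With the number as a block limma called no gene in the table and none of the 34 (2 higher and 0 lower at an unadjusted p under 0.05, against 8.03% and 7.48% of all tested genes). Oas1a rose 5.10-fold over the mean of ND replicates 2 and 3, and its HFD libraries were above all ND libraries, replicate 1 included (limma, all ND libraries, log2 fold change 2.11, SE 0.31, adjusted p = 0.0386). Trim30a (log2 fold change 1.64) and Sp100 (1.63) came next and were not called (limma, adjusted p = 0.494 for both), and Ifi35 (0.01), Igtp (−0.13) and Cxcl10 (−0.14) were lowest.

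Without ND replicate 1, limma called 2 higher in HFD (Oas1a and Trim30a) and 2 lower (Iigp1 and Igtp), where 11.0% of all 13661 tested genes were called higher and 4.34% lower. The median log2 fold change was 0.08 for the 34 genes and −0.02 for all genes.

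All 6 GTPases had negative log2 fold changes in HFD, with a median of −0.70. Iigp1 was 2.60-fold higher in ND replicates 2 and 3 than in HFD by means (limma, log2 fold change −1.29, SE 0.22, adjusted p = 0.0189). With ND replicate 1, where Iigp1 was at 0.110 FPKM, its log2 fold change was 0.23. Igtp was 2.21-fold higher in the same ND libraries (limma, log2 fold change −1.04, SE 0.17, adjusted p = 0.0157). Gbp3 was under the 1.5-fold threshold (limma, log2 fold change −0.56, SE 0.13, adjusted p = 0.0432), and Gbp7 (limma, log2 fold change −0.85, SE 0.24, adjusted p = 0.0775) and Cxcl9 (limma, log2 fold change −0.83, SE 0.21, adjusted p = 0.0556) missed the p-value threshold. With 11 libraries in the fit Gbp7 and Cxcl9 were called lower, and Trim30a was not called, against 13.0% of all tested genes called higher and 6.44% lower.

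Both chemokines were below 0 as well, and all 3 ISG15 conjugation genes and both synthetases were above 0. Of the effectors 7 of 9 were above 0, and of the sensors 3 of 4. Oas1a was again called higher in HFD (limma, log2 fold change 1.93, SE 0.16, adjusted p = 0.00241), as was Trim30a, a member of the TRIM family that restrains Toll-like receptor signalling (limma, log2 fold change 0.70, SE 0.15, adjusted p = 0.0345). Trim30a was not called when ND replicate 1 was left out and the libraries were also rescaled. Sensors had a median of 0.47 with none of 4 called, led by Zbp1 (log2 fold change 0.88) and Dhx58 (0.86). Sp100 (limma, log2 fold change 0.53, SE 0.12, adjusted p = 0.0467) passed the p-value threshold alone. Irf1 (−0.05) and Irf7 (−0.04) were near 0.

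With all ND libraries, 2 of 8 macrophage markers (Cd68 and C1qa) were called higher in HFD, at a median of 3.43 on the log2 scale. No adipocyte, stromal or mesothelial marker was called in that fit. Without ND replicate 1, all 8 macrophage markers were called higher in HFD, at a median of 2.45 on the log2 scale, with sums of 484 and 624 FPKM in the 2 ND libraries. Adipocyte markers Adipoq, Plin1, Cidec and Lipe were called lower and Lep higher. The 1 neutrophil marker tested, S100a8, was called higher. Of 3 dendritic cell markers tested 1 (Itgax) was called higher, with 2 above 0 and 1 below. Of 4 stromal markers 1 (Col1a1) was called higher, with 2 above 0 and 2 below. All 4 mesothelial markers were below 0, with Upk3b and Msln among those called lower. ND replicate 3, one of the 2 libraries left, held testis transcripts, as did HFD replicate 1. The part of these in the values was not tested.

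**Figure D5:**
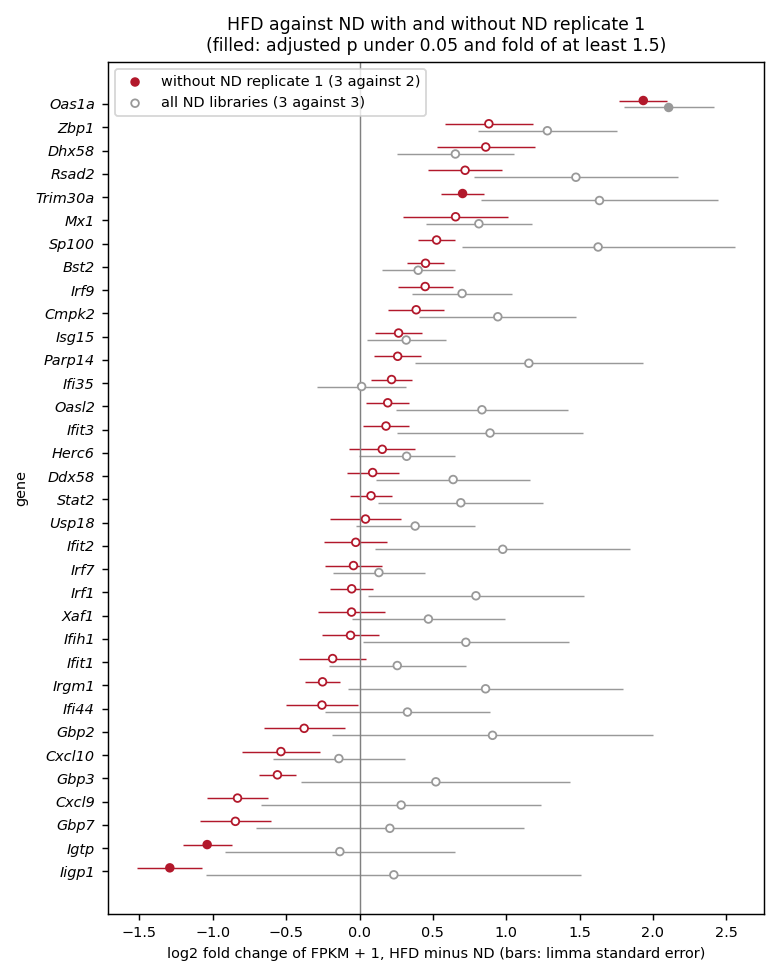
Log2 fold change of FPKM + 1 in HFD against ND, without ND replicate 1 (red, 3 against 2 libraries) and with all ND libraries (grey), with limma standard errors. Filled points pass the adjusted p-value and fold thresholds. Iigp1 and Igtp are called lower and Oas1a and Trim30a higher without ND replicate 1, and the grey bars are wider.

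The members of the pathway around these genes were read from lists of ligands, receptors, kinases, regulators and sensors. Of 19 ligand genes 16 were in the table and none passed the filter. In all 12 libraries 7 of the 16 were listed at 0, Ifnb1 among them. As Tyk2, a kinase of the pathway, and the class I gene H2-T23 were also at 0 throughout, a 0 in this file cannot be read as a low level. Ifng, the interferon of T and NK cells, measured 0.0930, 0.0642 and 0 FPKM in ND, 0.119, 0.107 and 0 in HFD, 0.0519, 0 and 0.0670 in GT and 0.288, 0.1196 and 0.230 in TJ. The highest value was in a TJ library, but all were under the filter and no test was run.

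Of 5 receptor genes tested in TJ against HFD, none was called higher and Ifnar1, a chain of the type I interferon receptor, was called lower. Ifnar1 measured 30.1, 34.9 and 34.9 FPKM in HFD and 19.5, 13.3 and 23.3 in TJ (limma, log2 fold change −0.83, SE 0.21, adjusted p = 0.0386). Ifngr1 had a log2 fold change of 0.07, Ifngr2 of −0.57 and Il10rb of −0.61. Ifnar2 passed the p-value threshold alone (log2 fold change 0.47, SE 0.12, adjusted p = 0.0393) and was called higher with median-of-ratios scaling. Ifnlr1 did not pass the filter. The kinase Jak1, which signals from both receptor types, was called lower (limma, log2 fold change −0.82, SE 0.21, adjusted p = 0.0393).

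Socs1, an inhibitor of Janus kinases that interferon itself induces, measured 2.07, 0.938 and 1.35 FPKM in ND, 1.45, 0.225 and 1.01 in HFD, 0.840, 0.457 and 0.332 in GT and 3.25, 2.97 and 2.80 in TJ. All TJ values were above every other library, at a low level. Socs1 averaged under 1 FPKM in HFD and in GT and passed the filter through TJ, so its values are given without a test. Of the other regulators tested in TJ against HFD, Pias1 was called lower (log2 fold change −0.86), and Socs3 was not called. Of 9 upstream sensors and adaptors, none was called higher and 3 lower in TJ than in HFD, against 7.41% and 11.1% of all tested genes. The 3 were Tlr7 (log2 fold change −1.73), Ikbke (−1.33) and Ticam1 (−0.73). Tlr7, an endosomal RNA sensor found in macrophages and dendritic cells, measured 9.60, 15.2 and 12.7 FPKM in HFD and 4.13, 1.49 and 4.03 in TJ. With the length trend removed, Ifnar1, Jak1, Pias1 and Ikbke were not called, and Tlr7 and Ticam1 were.

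A second list held 48 other interferon-stimulated genes, of which 46 were in the table. In TJ against HFD 43 were tested, 12 were called higher and 3 lower, where 7.41% and 11.1% of all tested genes were called, and the median log2 fold change was 0.28. With median-of-ratios scaling 15 were called higher and none lower, and with the length trend removed 9 higher and 2 lower. Of all 12807 tested genes, 1229 were called higher and 1177 lower with that scaling, and 700 and 864 with the length trend removed. The largest were again GTPases: Gbp4 (log2 fold change 1.75, SE 0.20, adjusted p = 0.0196), Tgtp1 (1.66) and Tgtp2 (1.54) by limma. Psmb9 (1.12), an immunoproteasome subunit, and Gbp2b (0.91) followed. The peptide transporters Tap1 and Tap2 and Nlrc5, which switches on class I genes, were among the 12. Gbp4 measured 0.447, 19.2 and 20.9 FPKM in ND, 5.996, 9.06 and 5.58 in HFD, 16.4, 9.88 and 9.79 in GT and 22.5, 23.1 and 29.8 in TJ, with every TJ library above all others. Slfn2 (−0.89), Ifi204 (−0.62) and Ifi205 (−0.60) were the 3 called lower, and all 3 lost the call with median-of-ratios scaling. Of 4 class I genes tested, limma called none, and their median log2 fold change was 0.41. Tgtp1 and Tgtp2 are near-identical copies, so their reads cannot be fully told apart.

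In GT against HFD, Ifitm2 (−0.66) was the 1 gene of these lists that was called, and it was lower. It was not called with median-of-ratios scaling or with the length trend removed, and in both Ifi27 was called higher instead. In HFD against ND without ND replicate 1, 43 other interferon-stimulated genes were tested. Leaving out Oasl1, which averaged under 1 FPKM in ND and passed the filter through HFD, 5 were called higher, led by Slfn2 (2.68), where 11.0% of all tested genes were called higher. In the same list 4 were called lower, where the share of all tested genes was 4.34%: Tgtp1 (−1.68), Tgtp2 (−1.48), Gbp4 (−1.44) and Irgm2 (−0.78). Of 5 receptors, 4 were higher: Il10rb (1.51), Ifnar1 (1.04), Ifngr2 (0.87) and Ifnar2 (0.75). Jak1 (0.64) and Irf5 (2.60), a factor of inflammatory macrophages, were called higher as well, as were 2 of 4 class I genes, H2-K1 and H2-D1. The 5 upstream genes called higher were Ikbke (2.06), Tlr7 (2.06), Ticam1, Tmem173 and Myd88. With all ND libraries, Slfn2 and Ikbke were the only genes of these lists that limma called.

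Across libraries, the highest level of the 34 genes was usually in a TJ library. TJ replicate 3 was the highest of the 12 libraries for 19 genes and TJ replicate 2 for 10. TJ replicate 1 was the highest for none. The same count over all tested genes was not made. The genes that TJ replicate 2 led included Igtp, Cxcl9, Bst2, Xaf1, Isg15, Ifi35, Irf7 and Usp18. Within HFD, replicate 2 was the highest for 23 of the 34 genes, and within ND, replicate 1 was the lowest for 31.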

How the data were processed

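RNA-seq libraries of epididymal adipose tissue were sequenced from 12 mice. The authors filtered reads on base quality, mapped them with STAR (2.4.0 in the submitters' processing notes), and deposited FPKM values per Ensembl gene from Cufflinks 2.1.1, after masking noncoding regions and correcting for multireads and fragment bias. The human genome of Ensembl release 72 is named as reference, but each of the 23474 deposited identifiers is from mouse. Multiread correction divides reads among close copies, so Gbp, Oas, Ifit and Tgtp values are uncertain in part. The authors' count-based calls were not used here.

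Names and coordinates (GRCm38) came from GENCODE release M21, which named 22671 identifiers and left 803 without a symbol. Promoter windows were RefSeq sequences. Each comparison was a limma fit (version 3.58.1, R 4.3.3, lmFit and eBayes with the trend option) to log2(FPKM + 1) of its own 6 libraries, over genes averaging 1 FPKM or more. Calls needed a fold of 1.5 or more and a Benjamini-Hochberg p below 0.05. The fit was tested on simulated data. Other steps used python 3.11.15 (numpy 2.4.6, pandas 2.3.3, matplotlib 3.10.9).

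The 34 genes, the pathway and marker lists and the motifs were chosen with earlier results of these data known. The genes given in every library were those called in any comparison and the 3 highest and 3 lowest log2 fold changes of each comparison. The pathway genes named were the called ones, at most 5 per list and comparison, and ligands, receptors and Socs genes. The further genes of these lists were named after their values were seen. A further gene of that rule is not reported here.

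Nothing in the labels says what a replicate number shares. Deviations from the group means correlated over genes at 0.547, 0.342 and 0.122 for same-numbered HFD and ND libraries, so these were also fitted with the number as a block, although 0.626 was reached by HFD replicate 3 with ND replicate 2.

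The alternatives were quantile normalization or median-of-ratios scaling, a pseudocount of 0.1, a filter at 5 FPKM or none, a fit of all 12 libraries, no trend, the block and each library left out. Removal of the length trend (loess, span 0.5), 11 libraries in the fit, and rescaling without ND replicate 1 were added after seeing the data.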

Additional observations from a re-analysis of the deposited data

How the results depend on the processing

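For TJ against HFD, 14 of the 34 genes were called in either direction. No filter on low values gave 8, the replicate block gave 7 and all 12 libraries in the fit gave 0. Over the whole table, the fit with no filter called 198 genes higher and 184 lower of 20343. The block called 429 and 769 of 12807, and the fit of all 12 libraries called 1 and 0 of 12807. Leaving out 1 library in turn gave 0 to 14. Igtp kept a log2 fold change of 1.45 to 1.78 over all alternatives and was called in 11 of 16. Same-numbered libraries correlated at −0.029, −0.051 and 0.227 here and shared only a number, so the block has no basis in the design. In GT against HFD (0.198, 0.053 and −0.07) and TJ against GT (0.371, −0.213 and −0.079) none of the 34 was called with or without the block. Over all tested genes, the block took the calls in GT against HFD from 233 higher and 231 lower to 1 and 4. In TJ against GT they were 17 and 1 with and without it. GT against HFD gave 0 called genes and 1 (Cxcl9) with median-of-ratios scaling or quantile normalization. TJ against GT gave 0, and 4 with 11 libraries in the fit, all but ND replicate 1.

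For HFD against ND, 1 gene was called. The count was 0 with a pseudocount of 0.1, with a filter at 5 FPKM or none, with quantile normalization and with the replicate block, 2 with the length trend removed (Oas1a and Bst2), and 0 to 4 with 1 library left out in turn, 4 being the value without ND replicate 1. It was 5 with 11 libraries in the fit, and 3 without ND replicate 1 under either rescaling. Of all 14430 tested genes, a pseudocount of 0.1 called 121 higher and 5 lower and quantile normalization 217 and 7. The block called 0 and 0 of these, and removal of the length trend 362 and 5. The filter at 5 FPKM called 195 and 5 of 10637, and no filter 184 and 6 of 20492. The log2 fold change of Iigp1 was 0.23 with all libraries, −1.29 to 1.10 with 1 library left out in turn, and changed sign without ND replicate 1, to −1.29 (also with 11 libraries in the fit), −1.35 with median-of-ratios scaling and −1.36 with quantile normalization. That of Cxcl9 went from 0.28 to −0.83 with 11 libraries in the fit. Both changes come with the removal of ND replicate 1, in which these genes were at 0.110 and 0.973 FPKM. Median-of-ratios scaling moved the median of all genes in this comparison from 0.07 to −0.12.

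FPKM values carry no counting error, so genes near 1 FPKM, such as Mx1 and Socs1, are the least precise. With 3 libraries a group, 1 mouse each, other causes of the differences between libraries cannot be told apart from diet.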
